A study of Homo sapiens with 12 samples.

Results

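The 10 genes described here belong to the stress machinery of the endoplasmic reticulum (ER): the sensors ERN1 and ATF6, the transcription factor XBP1, the chaperones HSPA5, HSP90B1, DNAJB9 and SDF2L1, the disulfide isomerase PDIA4, and the degradation factors EDEM1 and HERPUD1. They were chosen by name, as a list of known genes, with earlier results of these data known. All 10 were found among the 57773 genes of the deposited matrix. The question they address is whether altered elongation of polyunsaturated fatty acids engages the IRE1 and ATF6 branches of the unfolded protein response. RNA came from A498, an established human renal carcinoma line, transfected with control siRNA, with siRNA to ELOVL2 (siELOVL2), with siRNA to ELOVL5 (siELOVL5), or with both (siELOVL2+5, the double knockdown), at 3 biological replicates per group and 12 libraries in all. All 4 groups are of this single line, and the controls had an siRNA transfection too. ELOVL2 and ELOVL5 encode fatty acid elongases of the ER membrane. No source used here gives the siRNA sequences, the dose or the time from transfection to harvest.

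The unfolded protein response lets a cell match the folding capacity of its ER to the load of new secretory and membrane proteins. IRE1 (the product of ERN1) splices XBP1 messenger RNA to yield an active transcription factor, ATF6 travels to the Golgi and is cut there to release another, and PERK (EIF2AK3) slows translation and favours ATF4. Misfolded proteins in the lumen are the classical trigger, and the lipid makeup of the ER membrane can also activate the sensors. The values here are transcript totals per gene, so XBP1 splicing, ATF6 cleavage and kinase activity were not measured.

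Targets of ATF6 and XBP1 carry known promoter elements, and the sites found in members are shown because members with and without such a site can then be followed side by side. The ER stress element (ERSE) is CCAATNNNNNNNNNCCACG and ERSE-II is ATTGG, any 1 base and CCACG, both searched on both strands of RefSeq promoters (GRCh38.p14, 250 bases before to 50 after the start). All 10 members had a promoter in that table. Capitals mark the fixed bases of each motif, with 20 flanking bases on each side, read 5′ to 3′ along the gene.
HSPA5 ERSE, chr9:125241371-125241429, minus strand: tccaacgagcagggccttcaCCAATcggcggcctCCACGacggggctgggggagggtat
HSP90B1 distal ERSE, chr12:103930196-103930254, plus strand: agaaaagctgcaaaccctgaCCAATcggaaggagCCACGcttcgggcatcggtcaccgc
HSP90B1 proximal ERSE, chr12:103930301-103930359, plus strand: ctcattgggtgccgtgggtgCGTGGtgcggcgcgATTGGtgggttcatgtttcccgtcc
XBP1 ERSE, chr22:28800583-28800641, minus strand: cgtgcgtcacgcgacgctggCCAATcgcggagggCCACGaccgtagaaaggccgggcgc
HERPUD1 ERSE-II, chr16:56932005-56932055, plus strand: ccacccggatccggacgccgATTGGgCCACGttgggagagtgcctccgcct
SDF2L1 ERSE-II, chr22:21642094-21642144, plus strand: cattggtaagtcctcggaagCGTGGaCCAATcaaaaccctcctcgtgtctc

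The proximal HSP90B1 site and the SDF2L1 site lie on the strand opposite to the gene, so their motifs read as the reverse complement. Sites ended between 34 bases (XBP1) and 178 bases (SDF2L1) before the start. ERSE was found in 27 of 35116 promoters (0.0769%), among them HSPA5, HSP90B1 and XBP1. ERSE-II was found in 19 (0.0541%), among them HERPUD1 and SDF2L1. The XBP1-binding UPRE (TGACGTGG, in 256 promoters, 0.729%) and the C/EBP-ATF element (TGATGNAAT, in 348, 0.991%) were found in 0 members within these windows. The bare CCACG core, which ERSE and ERSE-II also hold, was found in 38.1% of promoters and in 8 members, ATF6 and ERN1 being the exceptions. DNAJB9, EDEM1, PDIA4, ATF6 and ERN1 had no full ERSE or ERSE-II match within this window, which says only that these letters are not there.

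The deposited values have the form of read counts after quantile normalization and are called normalized counts here. Every library has the same total of 8.525 M, and the depth before that step was estimated at 6.70 to 10.7 M reads. The siRNA targets checked the labels: ELOVL2 stood at 8.87 to 9.32% of its control mean in the groups with siELOVL2, and ELOVL5 at 7.48 to 9.03% in those with siELOVL5. All 7 renal epithelial markers were measured, and their summed count was 32806 to 33354 in control, 26922 to 27761 in siELOVL2, 25251 to 31146 in siELOVL5 and 24684 to 28841 in double-knockdown libraries. VIM was the largest part of the renal sum, at 13122 to 24170 over the 12 libraries. CDH6 ranged from 247 to 3863, and CA9 was low, at 2.08 to 29.1. The fibroblast and endothelial sums reached at most 4.5 and 7.17. The leukocyte sum of 315 to 486 was mostly CD68, with CD3E at 0, and the plasma cell sum was nearly all SDC1, which epithelia also express. The library of siELOVL5 replicate 3 stood apart, with 15.6% of tested genes above and 18.4% below all other 11 libraries, so the siELOVL5 values of the members are given with and without it.

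Per kilobase of exon, transcripts for the abundant lumenal folding factors led in the control cells. HSP90B1 had 3649 ± 62.0 normalized counts per kilobase (SD, n = 3), PDIA4 had 2626 ± 63.9 and HSPA5 had 2187 ± 154. XBP1 followed at 423 ± 16.8, then SDF2L1 at 216 ± 10.6, HERPUD1 at 190 ± 3.29, EDEM1 at 149 ± 5.95, ATF6 at 139 ± 8.62 and DNAJB9 at 130 ± 7.02. The sensor ERN1 was the lowest, at 15.1 ± 1.51. Between neighbours in this order, the ranges over the 3 control libraries overlapped only for EDEM1 with ATF6 and for ATF6 with DNAJB9. Exon lengths are those of GENCODE 29, since no source used here names the authors' annotation. Exons of DNAJB9 share 183 bases (6.74%) with THAP5 on the opposite strand and those of EDEM1 share 626 bases (9.88%) with the antisense gene AC026202.3. Whether counting used strand is not stated, so reads there cannot be assigned with certainty.

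Neither single nor double knockdown gave a broad change of these genes. PDIA4 was the only member past the test (limma, Benjamini-Hochberg adjusted p under 0.05 over 18648 genes), and only in the double knockdown. The members called were thus 0 of 10 with siELOVL2 against 1.36% of all tested genes, 0 of 10 with siELOVL5 against 0.139%, and 1 of 10 with siELOVL2+5 against 4.42%. At an unadjusted p under 0.05 the counts were 1, 1 and 2 members, beside 2557, 1783 and 3505 of the 18648 tested genes. The median log2 fold change of the 10 members was -0.01 with siELOVL2, 0.14 with siELOVL5 and -0.01 with siELOVL2+5, beside 0.02, -0.00 and 0.02 over all tested genes. Without siELOVL5 replicate 3 the siELOVL5 median was -0.01. The 3 comparisons share the control libraries.

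**Figure D1:**
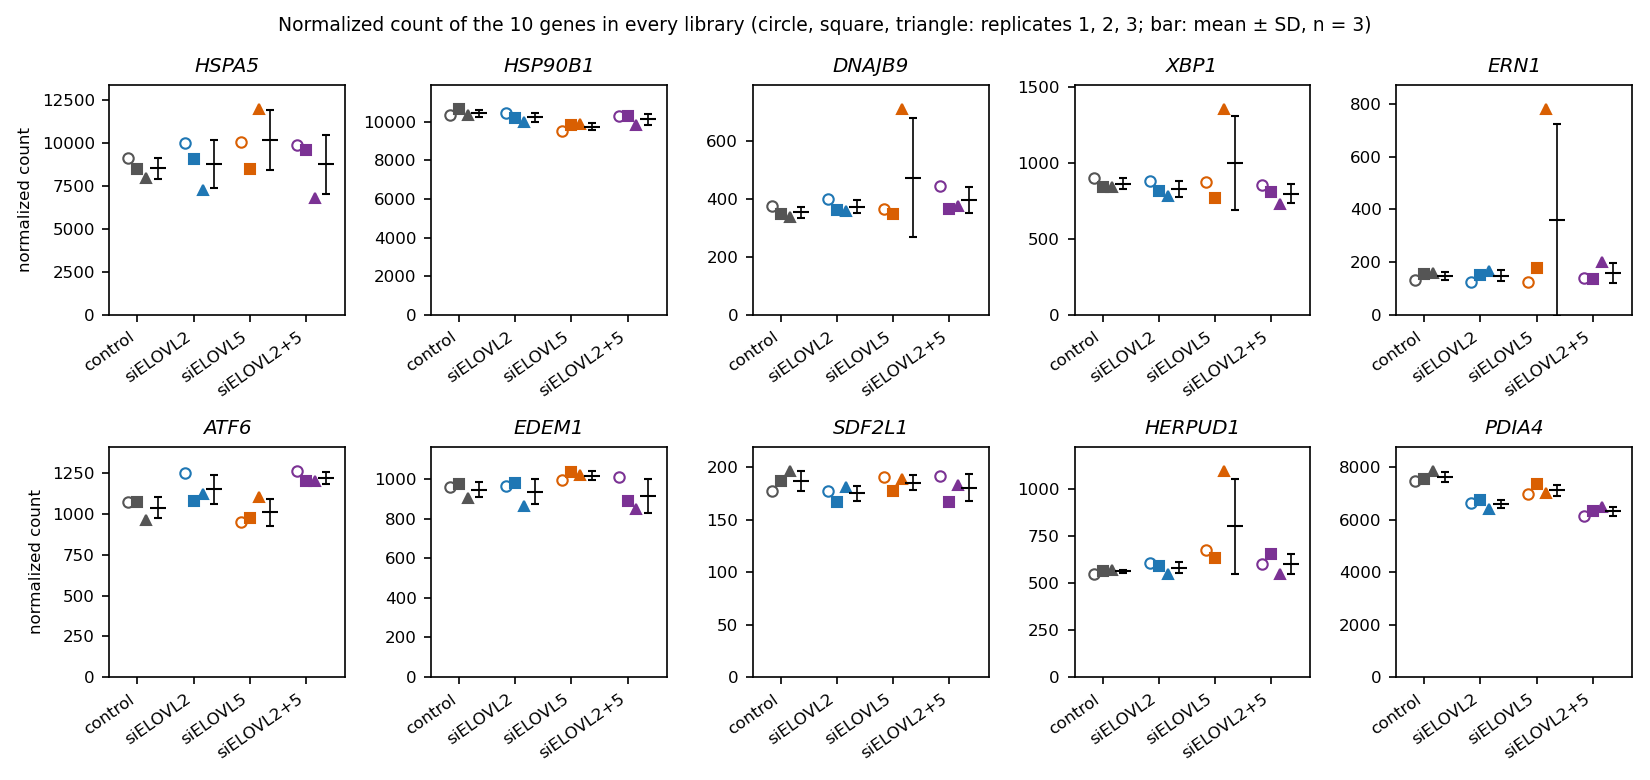
Normalized count (y axis, from 0) of each of the 10 genes in the 12 libraries by siRNA group (x axis), with replicates 1, 2 and 3 as circle, square and triangle and the mean ± SD (n = 3) as a black bar. PDIA4 is lower in all 6 libraries with siELOVL2 siRNA than in the other 6, and siELOVL5 replicate 3 holds the highest value for HSPA5, DNAJB9, XBP1, ERN1 and HERPUD1.

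Among the sensors, ERN1 encodes IRE1, a kinase and ribonuclease of the ER membrane. Its normalized counts were 131, 156 and 157 in control replicates 1 to 3, 126, 152 and 168 with siELOVL2, 125, 176 and 780 with siELOVL5, and 138, 135 and 201 in the double knockdown. A single library, siELOVL5 replicate 3, was far above the rest, and the remaining 11 overlapped across groups. The log2 fold change against control was -0.00 with siELOVL2 (SE 0.48, 95% interval -1.04 to 1.04), 0.80 with siELOVL5 (SE 0.48, adjusted p = 0.611, limma) and 0.07 in the double knockdown. Without siELOVL5 replicate 3 the siELOVL5 value was 0.01 (SE 0.20, adjusted p = 1, limma).

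XBP1, the substrate of IRE1, stood at 902, 843 and 842 normalized counts in control, 882, 813 and 783 with siELOVL2, 876, 770 and 1352 with siELOVL5, and 855, 809 and 728 in the double knockdown. Again siELOVL5 replicate 3 was the single high library, and the other groups overlapped with control. The log2 fold changes were -0.06, 0.17 and -0.12 (SE 0.16 each), with adjusted p between 0.761 and 0.915 (limma). The siELOVL5 value was -0.07 without that library.

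ATF6, the membrane-bound precursor of the second branch, had 1075, 1077 and 964 normalized counts in control and 1250, 1082 and 1121 with siELOVL2. It had 954, 976 and 1107 with siELOVL5 and 1262, 1201 and 1202 in the double knockdown. All siELOVL2 and all double-knockdown libraries lay above all 3 controls, a separation found upward in 12% and 13.4% of tested genes, while siELOVL5 overlapped with control, at a log2 fold change of -0.04, or -0.10 without replicate 3. The log2 fold change was 0.15 with siELOVL2 (SE 0.08, adjusted p = 0.472, limma) and 0.24 in the double knockdown (SE 0.08, unadjusted p = 0.0136, adjusted p = 0.134, limma), so neither passed. Between the double knockdown and siELOVL5 it was 0.27 (SE 0.08, adjusted p = 0.0991, limma). That last comparison passed without siELOVL5 replicate 3, at 0.34 with adjusted p = 0.0299 (limma), and the double knockdown against control then had adjusted p = 0.0505.

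The chaperone HSPA5 (BiP), an ATP-driven chaperone that also holds the sensors inactive, varied widely between replicates, with SDs of 601 to 1751 within groups. Its normalized counts were 9165, 8512 and 7964 in control, 10010, 9107 and 7282 with siELOVL2, 10102, 8488 and 11988 with siELOVL5, and 9892, 9636 and 6807 in the double knockdown. The lowest value of control, siELOVL2 and the double knockdown was in replicate 3 each time, whereas replicate 3 was the highest with siELOVL5. The log2 fold changes were 0.03, 0.24 and 0.02 (SE 0.16 each), none past the test (adjusted p from 0.662 to 0.975, limma). The siELOVL5 value was 0.12 without replicate 3.

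HSP90B1 (GRP94), the ER paralog of HSP90, was the steadiest of the abundant members. It had 10353, 10660 and 10353 normalized counts in control, 10476, 10213 and 10010 with siELOVL2, 9535, 9816 and 9892 with siELOVL5, and 10299, 10299 and 9816 in the double knockdown. All siELOVL5 and all double-knockdown libraries were below the 3 controls, a separation found downward in 7.04% and 11.4% of tested genes. The distance was small: the log2 fold change was -0.10 with siELOVL5 (95% interval -0.24 to 0.04) and -0.04 in the double knockdown (-0.18 to 0.09), with adjusted p of 0.636 and 0.770 (limma). The siELOVL5 value was -0.11 without replicate 3.

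DNAJB9 (ERdj4), a J-domain co-chaperone of BiP and a well-known XBP1 target, had 374, 348 and 337 normalized counts in control and 399, 362 and 358 with siELOVL2. It had 364, 346 and 709 with siELOVL5 and 445, 365 and 377 in the double knockdown. The siELOVL5 mean of 473 ± 205 (SD, n = 3) rested on replicate 3: the log2 fold change was 0.34 with it (SE 0.21, adjusted p = 0.619, limma) and 0.01 without it. SDF2L1, a partner of ER J-domain proteins, ranged only from 167 to 196 over the 12 libraries, with group means of 187, 175, 185 and 181 for control, siELOVL2, siELOVL5 and double knockdown. Its largest log2 fold change was -0.09 with siELOVL2 (SE 0.10, adjusted p = 0.740, limma), and its siELOVL5 value was -0.01, or -0.02 without replicate 3.

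PDIA4 (ERp72), which forms and rearranges disulfide bonds in the ER, fell in the double knockdown. It had 7484, 7550 and 7833 normalized counts in control, 6613, 6731 and 6421 with siELOVL2, 6972, 7350 and 7010 with siELOVL5, and 6148, 6319 and 6465 in the double knockdown. The 6 libraries with siELOVL2 siRNA were all below the 6 without it, a pattern of 2.45% of tested genes (3.51% show the opposite order, among them 0 members). Group means were 7622 ± 186, 6588 ± 157, 7110 ± 208 and 6311 ± 158 (SD, n = 3), so the knockdowns stood at 86.4%, 93.3% and 82.8% of control. The log2 fold change was -0.27 in the double knockdown (SE 0.06, adjusted p = 0.0288, limma), with 3 of 3 libraries below all controls. That separation was found downward in 11.4% of tested genes.

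With siELOVL2 alone PDIA4 differed from control by a log2 value of -0.21 (SE 0.06, unadjusted p = 0.00534, adjusted p = 0.136, limma), which missed the threshold, and passed it without siELOVL5 replicate 3 (adjusted p = 0.0405). With siELOVL5 alone the value was -0.10 (SE 0.06, adjusted p = 0.631, limma), and -0.09 without replicate 3. All 3 siELOVL2 libraries and all 3 siELOVL5 libraries were below the controls, as were 10.4% of tested genes with siELOVL2 and 7.04% with siELOVL5. The direct test of double knockdown against siELOVL2 gave -0.06 (SE 0.06, adjusted p = 1, limma), and that against siELOVL5 gave -0.17 (adjusted p = 0.169), or -0.18 (adjusted p = 0.104) without siELOVL5 replicate 3. The call in the double knockdown was near its threshold: the adjusted p was 0.0843, 0.102 and 0.0948 without control replicate 1, 2 and 3. It was 0.103 and 0.0912 without double-knockdown replicate 1 and 2, and 0.0535 without siELOVL2 replicate 2.

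For the degradation branch, HERPUD1 (HERP), a membrane scaffold of the ubiquitin ligase complex that retrotranslocates misfolded proteins, had 550, 566 and 567 normalized counts in control and 605, 588 and 547 with siELOVL2. It had 677, 635 and 1093 with siELOVL5 and 603, 652 and 545 in the double knockdown. All 3 siELOVL5 libraries were above the controls, as were 6.07% of tested genes. The log2 fold change was 0.47 (SE 0.16, unadjusted p = 0.0109, adjusted p = 0.375, limma) and 0.23 (SE 0.08, adjusted p = 0.544) without siELOVL5 replicate 3, so it missed the threshold either way. The double knockdown, which has the same siELOVL5 siRNA, gave 0.09 (adjusted p = 0.808, limma).

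EDEM1, a lectin that hands mannose-trimmed glycoproteins to degradation, had 958, 976 and 904 normalized counts in control, 965, 983 and 863 with siELOVL2, 994, 1038 and 1020 with siELOVL5, and 1010, 888 and 847 in the double knockdown. The siELOVL5 libraries were above all controls by a small margin, a separation found upward in 6.07% of tested genes. The log2 fold change was 0.11 (95% interval -0.07 to 0.28, adjusted p = 0.712, limma), and 0.10 without replicate 3. The other groups overlapped with control. EDEM1 did not share the high value of siELOVL5 replicate 3.

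**Figure D2:**
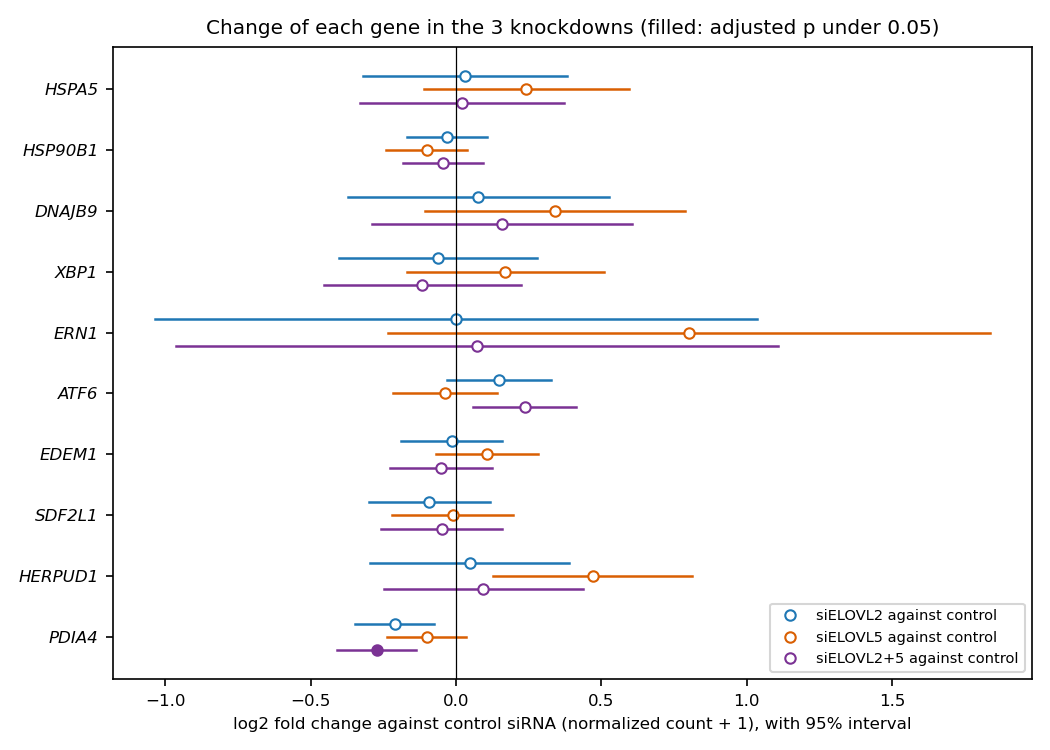
Log2 fold change of each gene (y axis) against control siRNA, on the log2(normalized count + 1) scale (x axis), with 95% intervals from limma, for siELOVL2 (blue), siELOVL5 (orange) and both siRNAs (purple). The filled point is the only one with an adjusted p under 0.05, PDIA4 in the double knockdown at -0.27, and the intervals of ERN1 are the widest.

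How large a change the data leave room for differed by gene. For siELOVL2 and for the double knockdown, the 95% interval of the fold change lay within 1.5-fold in either direction for 9 and 8 members. ERN1 was outside in both cases and DNAJB9 in the double knockdown. For siELOVL5 it did so for 6, without HSPA5, DNAJB9, ERN1 and HERPUD1, which with XBP1 are the members highest in its replicate 3. In each comparison 9 of 10 intervals lay within 2-fold, ERN1 being the exception. All groups share an estimate of the spread, so siELOVL5 replicate 3 enters the intervals of every comparison. Without it, all 10 intervals lay within 1.5-fold in each of the 3 comparisons. Those of ERN1 then ran from -0.39 to 0.39 with siELOVL2, from -0.44 to 0.45 with siELOVL5 and from -0.32 to 0.47 in the double knockdown.

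Between the knockdowns, 0 members were called in siELOVL5 against siELOVL2 (3.01% of all genes called), siELOVL2+5 against siELOVL2 (0.059%) and siELOVL2+5 against siELOVL5 (2.77%). The interaction, which asks whether the double knockdown departs from the sum of the single ones, called 0 members and 0 of all tested genes (0%, limma, with 522 genes at an unadjusted p under 0.05, and 9 called without the intensity trend). At an unadjusted p under 0.05 these 4 tests gave 2, 0, 3 and 0 members, beside 3201, 672, 3242 and 522 of 18648 tested genes. Without siELOVL5 replicate 3, ATF6 was called in siELOVL2+5 against siELOVL5.

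In siELOVL5 replicate 3, 5 of the 10 members were higher than in any other library, against 15.6% of all genes, and none was lower than in all others, against 18.4%. ERN1 was 5.19-fold above the mean of siELOVL5 replicates 1 and 2, DNAJB9 2.00-fold, HERPUD1 1.67-fold, XBP1 1.64-fold and HSPA5 1.29-fold. The other 5 were near their siELOVL5 partners, at 1.15-fold for ATF6, 1.03-fold for SDF2L1, 1.02-fold for HSP90B1, 1.00-fold for EDEM1 and 0.979-fold for PDIA4. Possession of a promoter element did not separate them: HSPA5, XBP1 and HERPUD1 were high in that library while HSP90B1, with 2 ERSE copies, and SDF2L1, with ERSE-II, were not. These are values of 1 library, with no replicate and no test.

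Among the lists, the PERK arm had the highest median difference in the same library. Of 10 genes listed for it, 9 were above all other libraries, EIF2S1, the translation factor that PERK phosphorylates, being the exception, and the list's median log2 difference from siELOVL5 replicates 1 and 2 was 1.83. ATF3, a stress-induced repressor, was 22.4-fold higher, with 4390 normalized counts against 111 to 222 elsewhere. DDIT3 (CHOP), a pro-apoptotic factor, was 7.42-fold higher, PPP1R15A (GADD34), which restores translation, 6.46-fold, and the asparagine synthetase gene ASNS 3.68-fold. ATF4 itself was 1.65-fold higher. EIF2AK3, the gene of PERK, was at 0.989-fold of siELOVL5 replicates 1 and 2. Kinase activity was not measured, so whether PERK or another kinase acted was not tested. The siELOVL5 fold changes of all 10 PERK arm genes were above 0, with a median of 0.81 (0.14 without this library). Yet 0 were called and 3 had an unadjusted p under 0.05, beside 1783 of all 18648 tested genes. SESN2, which had the smallest p of that list, was at 0.98 (SE 0.41, adjusted p = 0.476, limma) and at 0.30 without replicate 3.

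The other ER lists showed values in both directions in this library, to be read beside the 15.6% of all genes above and 18.4% below all other libraries. Above were 5 of 17 further chaperones (29.4%: CANX, HYOU1, DNAJB11, DNAJC1 and HSPA13, with 4 below all others), 2 of 12 oxidoreductases (ERO1L and ERO1LB, 3 below) and 2 of 20 degradation genes (SEL1L and VIMP, 3 below). Of 16 translocation genes it was 1 (SEC63, with 6 or 37.5% below), and of 15 further sensors and processing factors it was 2 (TRAF2 and TMBIM6, with 7 or 46.7% below). Of 7 transcripts reported as substrates of IRE1-dependent decay, 0 were above and 4 below all others. Of 13 cytosolic and mitochondrial heat shock genes, 11 were below all others and only HSPA9, a mitochondrial chaperone, was above. The estimated depth of this library, 7.76 M reads, was within the range of the others.

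**Figure D3:**
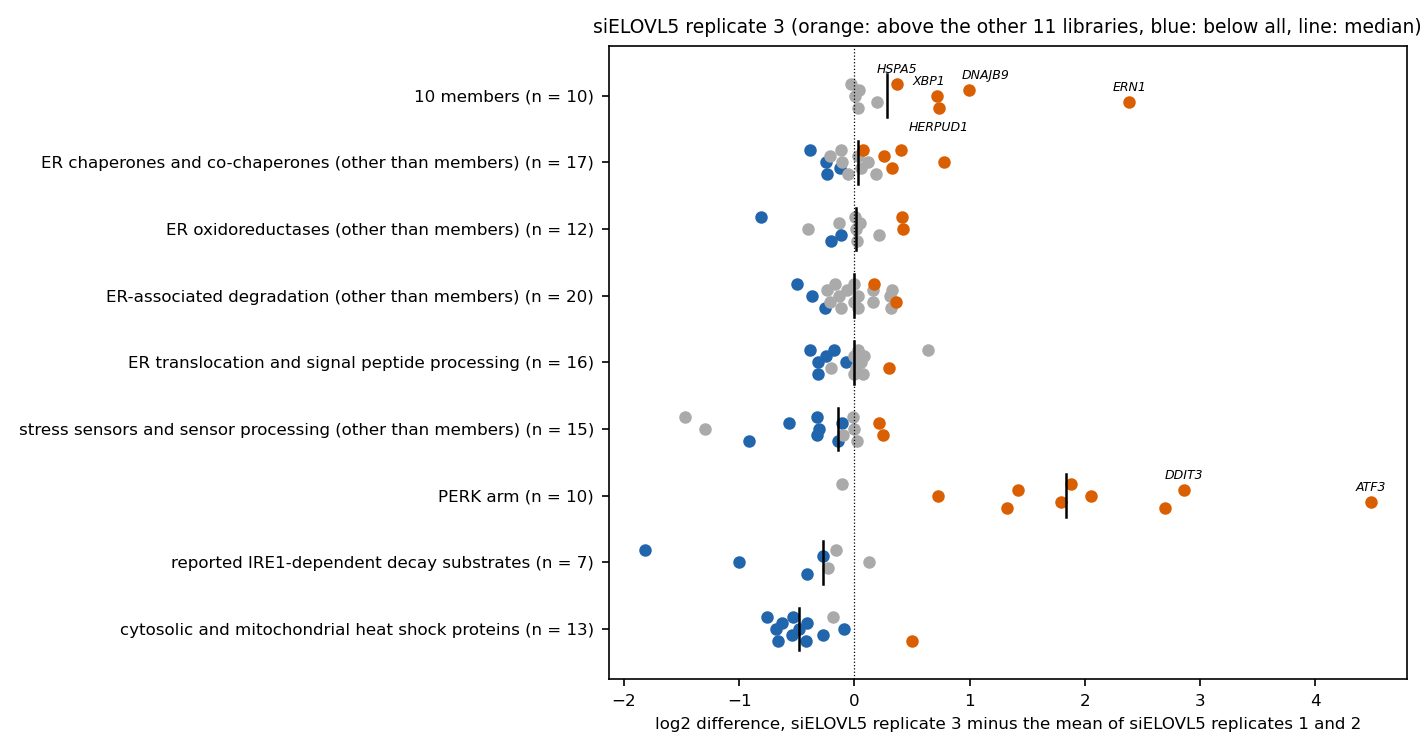
Log2 difference of siELOVL5 replicate 3 from the mean of siELOVL5 replicates 1 and 2 (x axis) for each gene of each list (y axis, list size in brackets), orange where that library was above all other 11, blue where below all, with the list median as a black line. The PERK arm has 9 of 10 genes in orange with a median of 1.83, the 10 members have 5, and 11 of 13 heat shock genes are blue.

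Of 14 genes with an ERSE and a mean normalized count of at least 50, 5 were highest in that library (CANX, FICD, HSPA5, TRIM5 and XBP1), and 1 was the lowest (CALR). Of 13 with ERSE-II, 3 were highest (HERPUD1, HYOU1 and NAV2) and 6 lowest (GYS1, PLS3, RAD9A, RUVBL2, SHCBP1 and ZNF143). Among all genes 15.6% were highest and 18.4% lowest there. In the tests of knockdown against control, chosen after their values were seen, 2 of these carriers passed. Of all tested genes, 1.36% were called with siELOVL2, 0.139% with siELOVL5 and 4.42% with both siRNAs. TRIM5, an antiviral restriction factor, fell with siELOVL2 (log2 fold change -0.53, adjusted p = 0.0295) and with both siRNAs (-0.65, adjusted p = 0.0047). SETD3, a histidine methyltransferase of actin, fell with siELOVL5 (-0.50, adjusted p = 0.0264, limma). In the double knockdown, which has the same siELOVL5 siRNA, SETD3 was at -0.20 and did not pass (adjusted p = 0.175, limma). The TRIM5 call in the double knockdown held in all 20 alternative analyses and its siELOVL2 call in 13, needing every control and siELOVL2 library (adjusted p of up to 0.131 when left out). The SETD3 call held in 9, and without single libraries its adjusted p ranged from 0.0107 to 0.177. Only siELOVL5 replicate 3 and double-knockdown replicates 1 and 3 could each be left out with the SETD3 call kept.

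Of the 110 genes on the wider lists, 0 were called higher and 2 lower with siELOVL2 (1.82%, beside 1.36% of all genes), 0 either way with siELOVL5 (beside 0.139%), and 1 higher and 5 lower with both siRNAs (5.45%, beside 4.42%). With siELOVL5, 15 of them had an unadjusted p under 0.05, beside 1783 of all 18648 tested genes. Without siELOVL5 replicate 3 the counts were 0 higher and 5 lower with siELOVL2 (4.55%, beside 4.45% of all genes), and 4 higher and 10 lower with both (12.7%, beside 9.52%), with 0 again for siELOVL5. The list medians (log2 fold change with siELOVL2, siELOVL5 and both siRNAs) were 0.00, -0.04 and 0.00 for chaperones, -0.04, -0.02 and -0.04 for oxidoreductases, and -0.01, -0.02 and 0.00 for degradation genes. They were 0.06, -0.06 and -0.02 for translocation genes, 0.00, -0.04 and 0.04 for the other sensors, and -0.08, -0.18 and -0.03 for heat shock genes. All of these lie close to the medians of all genes except that of heat shock genes with siELOVL5, which was -0.05 without replicate 3. The PERK arm was at -0.00 and -0.01 with siELOVL2 and with both siRNAs. Its gene SESN2 was at 0.48 in the double knockdown (SE 0.41, adjusted p = 0.586, limma). Without siELOVL5 replicate 3, SESN2 was the 1 gene of the 10 in that arm to pass there (adjusted p = 0.0471, limma), beside 9.52% of all genes. The IRE1 decay substrates were at -0.23, -0.14 and -0.28, and the second value was 0.02 without replicate 3. The other siELOVL5 medians were then -0.03 for chaperones, -0.02 for oxidoreductases, -0.01 for degradation, -0.05 for translocation and 0.01 for the other sensors.

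UBE2J1, the ER-anchored ubiquitin-conjugating enzyme of the degradation pathway, fell with both treatments that held siELOVL2. It had 345, 387 and 317 normalized counts in control, 230, 222 and 195 with siELOVL2, 400, 336 and 327 with siELOVL5, and 194, 202 and 221 in the double knockdown. All 6 libraries with siELOVL2 siRNA lay below the 6 without, a pattern of 2.45% of tested genes. The log2 fold change was -0.69 with siELOVL2 (SE 0.11, adjusted p = 0.0102) and -0.76 in the double knockdown (SE 0.11, adjusted p = 0.00269, limma). The first call needed control replicates 1 and 2 and siELOVL2 replicate 3 (adjusted p up to 0.068 when left out), and the second held without any single library.

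PMP22, a myelin membrane protein whose message is a reported IRE1 decay substrate, fell by 0.54 on the log2 scale in both (adjusted p = 0.0309 with siELOVL2 and 0.0167 in the double knockdown, limma). Its counts were 915, 894 and 1058 in control, 616, 676 and 680 with siELOVL2, 889, 840 and 776 with siELOVL5, and 577, 628 and 783 in the double knockdown. The other 6 decay substrates were not called with all 12 libraries. Without siELOVL5 replicate 3, 2 of the 7 substrates listed were called lower with siELOVL2, PMP22 among them, beside 4.45% of all genes called. In the double knockdown 3 were then called lower, PMP22, SPARC (a matrix protein) and SCARA3 (a scavenger receptor), beside 9.52%. BLOC1S1, the best known of the substrates, was at 0.32 with siELOVL2 and 0.35 in the double knockdown. Without single libraries the PMP22 adjusted p ranged from 0.0110 to 0.118 with siELOVL2, where each control and each siELOVL2 library and double-knockdown replicate 2 was needed for the call. In the double knockdown the range was 0.0040 to 0.0773, and control replicates 1 and 3 and double-knockdown replicates 1 and 2 were needed.

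The double knockdown alone called 4 more. DNAJC3 (p58IPK), a co-chaperone of BiP that restrains PERK, was at 1161 ± 59.7 in control, 1011 ± 87.7 with siELOVL2 and 939 ± 33.9 in the double knockdown (SD, n = 3) and fell by 0.31 on the log2 scale (SE 0.08, adjusted p = 0.0418, limma). FAF2 (UBXD8), which recruits the p97 extractor, fell by 0.28 (adjusted p = 0.0398), and MAP3K5 (ASK1), a kinase downstream of IRE1 and TRAF2, fell by 0.57 (adjusted p = 0.0192). EDEM2, a mannosidase that starts glycoprotein degradation, rose by 0.33 (SE 0.09, adjusted p = 0.0488). When libraries were left out singly, the call was kept in 3 of 12 fits for DNAJC3 and FAF2, 8 for MAP3K5 and 1 for EDEM2, with adjusted p of up to 0.157, 0.140, 0.0948 and 0.184. DNAJC3 needed each control and double-knockdown library, siELOVL2 replicate 2 and siELOVL5 replicates 1 and 2, and FAF2 each control, siELOVL2 and double-knockdown library. MAP3K5 needed control replicates 1 and 3 and double-knockdown replicates 1 and 2, and EDEM2 all libraries but siELOVL5 replicate 3.

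No other gene taken by the rule passed with all 12 libraries, and only some of those genes are given here. PDIA6, an isomerase partner of BiP, had 3958, 3951 and 3958 normalized counts in control and 3610, 3447 and 3491 in the double knockdown, with a log2 fold change of -0.17 (SE 0.06, adjusted p = 0.151, limma), and passed without siELOVL5 replicate 3 (adjusted p = 0.0374). MBTPS1 (site-1 protease), the Golgi enzyme that cuts ATF6, had 1638, 1634 and 1622 in control, 1904, 1960 and 1772 with siELOVL2, 1537, 1712 and 1506 with siELOVL5, and 1928, 1918 and 1978 in the double knockdown. Its log2 fold change was 0.20 with siELOVL2 (SE 0.07, adjusted p = 0.185) and 0.25 in the double knockdown (adjusted p = 0.0575, limma), or 0.0184 for the latter without siELOVL5 replicate 3. ATF6 and MBTPS1 were each above all controls in the 6 libraries with siELOVL2 siRNA, at values that missed the threshold with all 12 libraries. That separation was found upward in 12% of tested genes with siELOVL2 and in 13.4% in the double knockdown. For ATF6, siELOVL5 replicate 3 (1107) lay above the controls as well. TXNDC12, a thioredoxin-like ER protein, was at 0.23 with siELOVL2 (adjusted p = 0.226), and DERL2, a retrotranslocation channel protein, at -0.42 with siELOVL5 (adjusted p = 0.27, limma), or -0.53 (adjusted p = 0.103) without replicate 3.

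**Figure D4:**
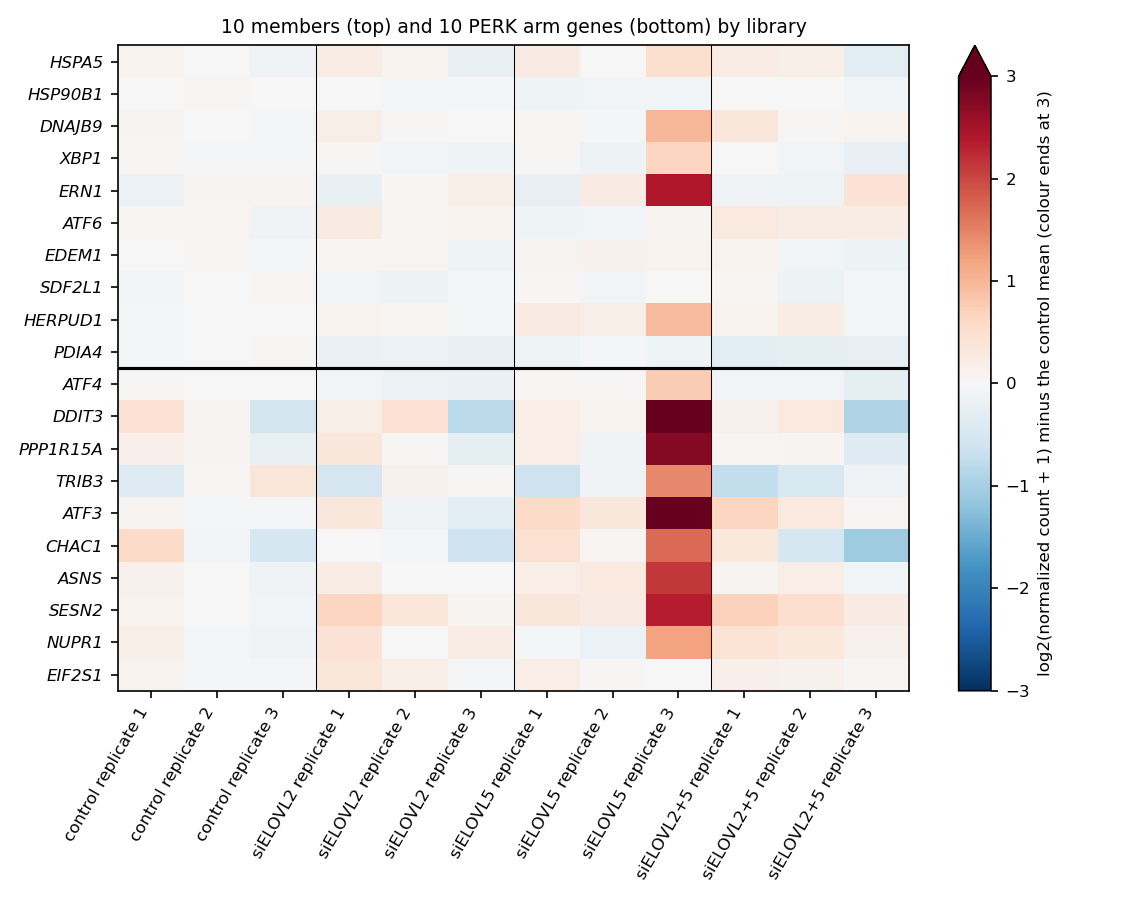
Log2(normalized count + 1) minus the control mean (colour, ending at 3) for the 10 members (top rows) and the 10 PERK arm genes (bottom rows) in the 12 libraries (columns). The column of siELOVL5 replicate 3 holds the strongest colours, with ATF3, DDIT3 and PPP1R15A darkest and ERN1 the darkest member. The PDIA4 row is pale blue in the siELOVL2 and double-knockdown columns.

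The members did not vary as a block across libraries. Pearson correlations of log2 values are given as descriptions over libraries that share 4 groups and the replicate numbers. With all 12 libraries ERN1 and XBP1 correlated at 0.78 (Spearman -0.42), and without siELOVL5 replicate 3 at -0.89. For HSPA5 and ERN1 the values were 0.35 (Spearman -0.49) and -0.91. DNAJB9 with XBP1 went from 0.89 to 0.26, DNAJB9 with HERPUD1 from 0.87 to 0.07 and XBP1 with HERPUD1 from 0.88 to 0.20. HSPA5 with XBP1 (0.78 and 0.75) and HSPA5 with HERPUD1 (0.75 and 0.69) changed little, as did ATF6 with PDIA4 (-0.77 and -0.78). In the 11 libraries ERN1 was thus high where HSPA5 and XBP1 were low, an order that follows the replicate number. In control, siELOVL2 and the double knockdown, HSPA5 and XBP1 were highest in replicate 1 and lowest in replicate 3. ERN1 was highest in replicate 3 of these groups. Whether the genes are tied beyond the replicate number was not tested. The joint high values of the 5 members rest on the single library.

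Genes of other families with the most similar profile were sought for 3 members. For HSPA5 the highest Pearson correlations over 12 libraries included those with ELK1 (0.99, and 0.99 over the 11), FOSL1 (0.97), CCDC85B (0.96) and IL8 (0.95). For DNAJB9 they were MAFK, OPTN, RND3, SESN2 and PPP2R2A (0.97 to 0.98), of which OPTN had the highest value over the 11 (0.92). For HERPUD1 they were FNIP1, STC2, IFIT2, RBBP6 and ATF3 (0.97 each), and 0.72 to 0.89 over the 11. ELK1, an ETS factor, ranged from 177 in double-knockdown replicate 3 to 258 in siELOVL5 replicate 3, the libraries where HSPA5 was lowest and highest. Like HSPA5, ELK1 fell from replicate 1 to replicate 3 in control, siELOVL2 and the double knockdown.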

How the data were processed

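RNA from 12 A498 libraries (4 siRNA groups, 3 biological replicates each) was read from both ends, 36 bases each, per the labels' protocols. The deposited matrix holds 1 normalized signal value per gene and library; every column has an identical set of values that are multiples of 1/12, the form that quantile normalization of read counts gives, though no label names that step for the authors' signal values. No source used here names the aligner, counter, annotation or build. After adding 1 and taking log2, values were fitted in limma 3.58.1 (R 4.3.3), with an intensity trend, all 4 groups together and 8 residual degrees of freedom. Genes that reached 1 in 3 or more libraries entered, 18648 in all. P-values were Benjamini-Hochberg adjusted over all of them with a threshold of 0.05, and fold changes understate changes of low genes. The procedure was tested on simulated data without replicate effects or an outlying library, so that test does not cover these features of the data. Depth was estimated from runs of tied values between 20 and 60 reads. Promoters and older symbols came from RefSeq (GRCh38.p14), searched with Python 3.11.15.

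The members and 8 gene lists were chosen with earlier results of these data known. All members, the siRNA targets and, for 3 members, the 5 genes with the highest correlation are named, except 1 that is not reported here. From each list and knockdown, a rule took up to 3 called genes in each direction, or the gene with the smallest p where none was called. All called genes so taken are described. Of those not called, FKBP14, SRPRB, SSR3, HSPA1B, HSPE1 and HSPD1 have no values given here, and ERO1LB and EIF2S1 are given only for siELOVL5 replicate 3. BLOC1S1, SPARC, SCARA3, the promoter carriers, the genes named for siELOVL5 replicate 3 and the comparisons of MBTPS1 beyond siELOVL2 were added after their values were seen. Of 110 list genes, 5 matched by a RefSeq synonym and the rest by the same symbol. Alternatives were rescaling by the trimmed mean of M-values, a pseudocount of 4, filters of none and 10, no trend, a replicate block, only the groups compared, and leaving out each library.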

Additional observations from a re-analysis of the deposited data

Results flagged for a closer look

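DNAJB9, the BiP co-chaperone, was flagged because its response to siELOVL2 pointed in opposite directions in the 2 settings. Against the control mean all 3 siELOVL2 libraries were higher, and against the siELOVL5 mean all 3 double-knockdown libraries were lower. The difference between the 2 responses was -0.26 on the log2 scale and did not pass the test (SE 0.29, adjusted p = 0.996, limma). The siELOVL5 mean of 473 includes the 709 normalized counts of replicate 3, beside 364 and 346 in replicates 1 and 2. Without replicate 3 both responses were above 0, at 0.08 for siELOVL2 against control and 0.15 for the double knockdown against siELOVL5, and their difference was 0.07 (SE 0.13, adjusted p = 1, limma).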

How the results depend on the processing

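Of 1390 member fold changes computed under alternatives, 1375 stayed on the same side of the threshold, 8 were newly called, 7 lost their call (all PDIA4 in the double knockdown, as without the intensity trend at adjusted p = 0.0832), none reversed, and 49 uncalled values changed sign.

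The number of genes called moved widely. For siELOVL2 against control it was 101 without the trend, 412 with only the groups compared and 63 to 829 with single libraries left out. For siELOVL5 it was 1 and 9 to 39 (groups compared, libraries left out), and for the double knockdown 413 without the trend and 325 to 1775. It was 213, 49 and 165 to 707 for siELOVL5 against siELOVL2, 21, 1 and 2 to 16 for the double knockdown against siELOVL2, and 200, 21 and 154 to 791 against siELOVL5. The interaction gave 9 without the trend. Members called ranged from 0 to 1 for siELOVL2, for the double knockdown and for double knockdown against siELOVL5 when libraries were left out, and 0 were called in the double knockdown without the trend.

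The replicate numbers were checked for pairing. Same-numbered libraries correlated at 0.0518 to 0.713 in their deviations (14 of 18 pairs above 0.1), other pairs at -0.727 to 0.392 (5 of 36), and 10 of 12 libraries were closest to their own number. The rule for pairing asked for every same-numbered pair above 0.1, and not every pair met it. The main fit has no replicate block, so differences between replicate numbers stay in its SEs and intervals. With the replicate block, genes called were 861 for siELOVL2, 99 for siELOVL5, 1866 for the double knockdown, 1317 for siELOVL5 against siELOVL2 and 1368 for double knockdown against siELOVL5, and 1 member (PDIA4, adjusted p = 0.0484) was called with siELOVL2. Of the 110 list genes the block then called 0 higher and 2 lower with siELOVL2, 0 with siELOVL5, and 6 higher and 8 lower in the double knockdown. With the replicate block and siELOVL5 replicate 3 left out, chosen after seeing the data, the counts were 2540, 297, 3686, 1991, 108 (double knockdown against siELOVL2) and 2114. Members called were then 1 for siELOVL2 (PDIA4), 2 for the double knockdown (PDIA4 and ATF6, the latter at adjusted p = 0.00675), 1 for siELOVL5 against siELOVL2 (ATF6) and 2 for double knockdown against siELOVL5 (ATF6 and PDIA4), and the list genes called were 12 higher and 11 lower, 0 and 1, and 14 higher and 19 lower against control. The cause of these shifts was not tested.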
